A study of Saccharomyces cerevisiae with 24 samples.

Results

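The small nucleolar RNA (snoRNA) genes of budding yeast were followed through 24 RNA-seq libraries of Saccharomyces cerevisiae. All rows that the deposited tables class as snoRNA and that occur in all 7 tables were taken, which gave 76 genes of the 6424 that all tables share. One further snoRNA row, snR53, is listed in 5 tables and is not among them. By the notes of the RefSeq annotation, and for the pair of U3 genes by textbook knowledge, the 76 genes are 46 box C/D snoRNA genes, 29 box H/ACA snoRNA genes and NME1, the RNA of RNase MRP, so the class in the tables is slightly wider than snoRNAs proper. All 76 had the same coordinates and strand in the tables as in the R64 build.

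The libraries form 8 groups of 3 replicates, from 2 strains in 4 media. Both strains are of the GA74-1A background, lack PSD2 and the endogenous PSD1, and carry a PSD1 construct in its place. PSD1 and PSD2 encode phosphatidylserine decarboxylases, which make phosphatidylethanolamine. The control, labelled WT, carries functional Psd1-3XFLAG, subcloned in pRS305 according to the labels. The mutant, labelled LG, carries Psd1-LGS/AAA, in which the self-cleavage motif is replaced by alanines, so that the enzyme does not process itself and does not rescue growth without ethanolamine. The media are YPD alone (groups WTD and LGD), YPD with 2 mM ethanolamine (WTE and LGE), YPD with 2 mM choline (WTC and LGC), and YPD with 1% (v/v) tergitol plus 0.5 mM lyso-phosphatidylethanolamine, or lyso-PE (WTL and LGL). Tergitol is a detergent, and a group with tergitol alone was not analysed here, so the detergent and the lipid cannot be told apart. Cells were taken at an OD600 of 0.5 to 0.7, and RNA came from a hot phenol extraction. Whether polyadenylated RNA was selected and whether the libraries keep strand are not given in the sources used here.

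A snoRNA acts in the nucleolus as the RNA part of a ribonucleoprotein that pairs with pre-ribosomal RNA. Box C/D snoRNAs direct ribose methylation and box H/ACA snoRNAs direct pseudouridylation at the paired base, while a few members of both classes are needed for cleavage of the precursor. In yeast most snoRNA genes have their own promoter, some lie in polycistronic clusters cut by the RNase III Rnt1, and some lie in introns of host genes. Mature snoRNAs are not polyadenylated, whereas precursors and molecules marked for decay can be.

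The sequences of the members that the results below turn on are given here from the R64 genome, 5′ to 3′, as DNA of the gene's own strand. Capitals mark the letters TGATGA (box C) within the first 20 bases and CTGA (box D) within the last 20 bases of box C/D genes, or ACA within the last 10 bases of box H/ACA genes, where those exact letters occur. The H/ACA genes snR49 and snR44 and the C/D genes snR63 and snR4 are shown because they had the lowest levels of any group in the mutant with choline. The C/D genes snR55 and snR78 are shown because they fell in the mutant with tergitol and lyso-PE, snR66 because it rose in the mutant in YPD, snR68 because it had the highest level per length, and snR128 (U14) as a snoRNA with a role in precursor cleavage.
snR49: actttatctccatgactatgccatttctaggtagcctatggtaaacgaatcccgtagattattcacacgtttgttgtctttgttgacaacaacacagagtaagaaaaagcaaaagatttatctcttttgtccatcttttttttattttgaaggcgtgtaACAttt
snR44: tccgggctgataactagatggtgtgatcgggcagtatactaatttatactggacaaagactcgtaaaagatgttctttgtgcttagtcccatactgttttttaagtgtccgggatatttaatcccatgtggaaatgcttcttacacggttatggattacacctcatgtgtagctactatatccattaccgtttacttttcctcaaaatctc
snR63: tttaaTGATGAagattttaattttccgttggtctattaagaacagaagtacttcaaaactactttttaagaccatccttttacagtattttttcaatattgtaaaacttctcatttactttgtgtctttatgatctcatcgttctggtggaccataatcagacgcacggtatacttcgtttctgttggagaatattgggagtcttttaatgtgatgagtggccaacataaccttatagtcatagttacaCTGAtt
snR4: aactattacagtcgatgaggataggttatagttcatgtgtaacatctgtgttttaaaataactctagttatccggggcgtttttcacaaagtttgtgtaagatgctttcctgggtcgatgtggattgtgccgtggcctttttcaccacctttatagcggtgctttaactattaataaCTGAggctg
snR55: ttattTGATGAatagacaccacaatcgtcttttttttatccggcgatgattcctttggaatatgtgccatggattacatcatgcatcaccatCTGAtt
snR78: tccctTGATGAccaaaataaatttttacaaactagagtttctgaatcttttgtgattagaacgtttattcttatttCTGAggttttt
snR66: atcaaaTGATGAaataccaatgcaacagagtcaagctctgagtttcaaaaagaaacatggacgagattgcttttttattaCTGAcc
snR68: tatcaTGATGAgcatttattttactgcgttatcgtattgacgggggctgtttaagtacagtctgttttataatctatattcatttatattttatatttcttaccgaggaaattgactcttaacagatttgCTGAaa
snR128: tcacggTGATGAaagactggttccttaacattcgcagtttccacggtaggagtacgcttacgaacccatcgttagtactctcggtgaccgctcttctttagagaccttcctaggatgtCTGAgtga

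In R64 coordinates, snR49 lies at chrXIV:716120-716284 on the plus strand, snR63 at chrIV:323217-323471 on the minus strand and snR4 at chrV:424698-424883 on the plus strand, none of them overlapping another listed gene. snR44 lies at chrXII:856710-856920 on the plus strand inside the ribosomal protein gene RPS22B. snR55 (chrXII:794697-794794, minus strand) lies in a cluster with snR57 and snR61. snR78 (chrXIII:297278-297364, plus strand) lies in a cluster with snR72 to snR77. snR66 (chrXIV:586090-586175, plus strand) starts 163 bases downstream of NME1, and snR128 (chrX:139566-139691, minus strand) follows snR190 after 69 bases. snR68 lies at chrIX:97111-97246 on the plus strand. By the RefSeq notes, snR49 guides position 990 of the large-subunit ribosomal RNA and positions 120, 211 and 302 of the small-subunit RNA. snR44 guides large-subunit position 1056 and small-subunit position 106. The methylation sites are large-subunit positions 2256 for snR63, 2417 for snR66, 2421 for snR78 and 2640 for snR68, and small-subunit positions 1269 for snR55 and 414 for snR128. snR4 guides acetylation of the small-subunit RNA by Kre33.

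The classes are named after the searched boxes, so a difference in these letters between the classes is built in and only describes the annotation. TGATGA and CTGA in the stated windows occurred together in 35 of 46 box C/D genes and in 0 of 29 H/ACA genes, and CTGA alone in 44 of 46 C/D genes. On the opposite strand of the C/D genes the pair occurred in 0 of 46, and in windows of 100 bases along the genome, both strands counted, in 0.058% of 241410. The letters ACA in the last 10 bases occurred in 18 of 29 H/ACA genes, 7 of 46 C/D genes, 4 of 29 H/ACA genes read on the opposite strand and 12.7% of the genome windows. A match is a run of letters and was not tested for function. In organisation, 50 members stand alone, 18 have another member within 500 bases on the same strand and 8 lie inside a host gene on the same strand. The H/ACA genes are nearly all single, 27 of 29, while 17 of 46 C/D genes are clustered and 6 lie in hosts.

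The libraries held 16044470 to 20946936 counts, of which all 76 members together took 472 to 1244 CPM (counts as a share of the plain library total). Most members were shallow. The mean count over the 24 libraries was 2.08 for the lowest member and 2425 for snR86, the highest, with a median of 59.6 against 995 for protein-coding genes. A mean of at least 100 counts was reached by 29 members, and 9 members were under a mean of 20. Levels of single genes are in CPM scaled by TMM over the 24 libraries. Per length, in CPM per kilobase, the median was 22.8 for the members and 40.0 for protein-coding genes. In all 8 groups replicates 1 and 2 resembled each other most: the Pearson correlation across genes was 0.994 to 0.997 for them and 0.935 to 0.989 for pairs with replicate 3. Their counts still differed by more than sampling noise, with a chi-square per gene of 2.66 to 17.7, against 89.3 to 331 for pairs with replicate 3. They were kept as separate libraries, although such a difference does not show separate cultures. With replicates 1 and 2 summed into 1 library, 0 of the 27 calls of the pairwise comparisons below were kept. The labels do not say that replicates were separate cultures, so p-values measure the spread between these libraries, which may be technical. Counts of PSD1 were 7934 to 16977 in all libraries, and since both constructs hold the gene, its count does not check the mutated motif.

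The order of levels per length was led by snR68, a methylation guide of the large subunit, at 420 CPM per kilobase, with libraries between 208 and 645. snR4 followed at 204 (122 to 310), then snR49 at 153 (60.6 to 219) and snR41 at 151 (65.5 to 229), whose ranges overlap throughout. The lowest were snR73 at 1.01 (0 to 3.75), snR10 at 2.27 (0.790 to 5.56) and snR58 at 5.29 (0.508 to 12.9). The median was 22.8 for C/D genes, with a range of 1.01 to 420, and 24.5 for H/ACA genes, with a range of 2.27 to 153; a difference between the classes was not tested. Members inside hosts had a median of 23.2, clustered members 23.7 and single members 22.6. H/ACA genes are longer, with a median of 204 bases against 98 for C/D genes, and their median count was 122 against 43.6.

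**Figure D1:**
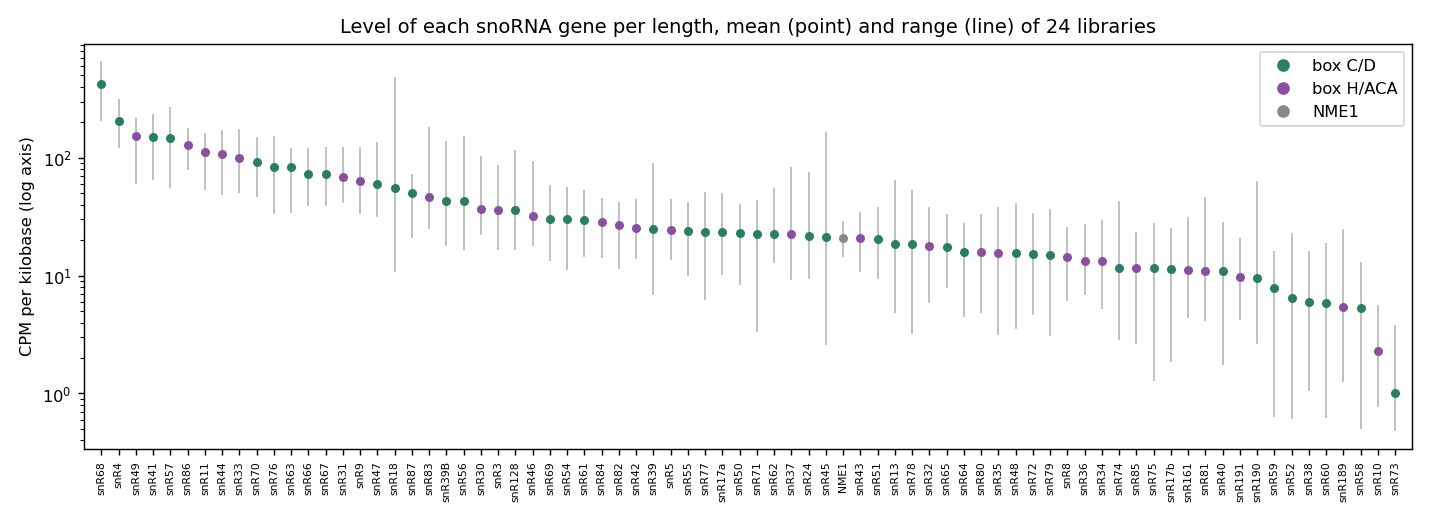
Level of each of the 76 snoRNA genes in CPM per kilobase of gene length on a log axis, ordered by the mean of 24 libraries (points), with lines from the lowest library above 0 to the highest. Levels run from 420 for snR68 to 1.01 for snR73, and box C/D and H/ACA genes are mixed along the whole order.

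A pair of libraries stands apart and touches every result on their groups. In replicate 3 of LGE, 67 of 76 members were higher than the mean of replicates 1 and 2, by a median of 0.74 on the scale of log2(CPM + 0.5), where the median of all genes was 0.01. In replicate 3 of WTL it was 52 of 76, with a median of 0.60 against -0.03. Genes of the other noncoding classes also had positive medians in these libraries. Small nuclear RNA genes had medians of 1.14 and 0.95 there, ribosomal RNA genes 1.04 and 1.83, transfer RNA genes 0.37 and 0.51, and other noncoding RNA genes 0.07 and 0.52. In the other 6 groups the member median lay between -0.18 and -0.01, while some medians of the other classes were positive there too, up to 0.84 for other noncoding RNA genes in LGC and 0.79 for ribosomal RNA genes in LGD. Of the 76 members, 50 had their highest count of the 24 libraries in LGE replicate 3, where snR18 had 1049 counts against 60 and 67 in replicates 1 and 2, and snR45 had 605 against 63 and 63. Shares, medians, counts of calls and fitted values of named members that rest on LGE or WTL are therefore given with and without that library.

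As a share of the library, the 76 members were at 622 ± 15.8 CPM of the plain library total in WTD (SD, n = 3 for each group), 638 ± 13.0 in WTE, 653 ± 94.2 in WTL and 640 ± 63.6 in WTC. The mutant held 694 ± 33.8 in LGD, 870 ± 324 in LGE, 638 ± 8.50 in LGL and 503 ± 29.3 in LGC. The 3 LGC libraries, at 472, 508 and 530, were below each of the other 21 libraries, of which the lowest was a WTC library at 568. In LGE replicate 3 stood at 1244 against 688 and 678, and without it the mean was 683 ± 7.11 (SD, n = 2). In WTL replicate 3 stood at 762 against 594 and 603, and without it the mean was 599 ± 5.83 (SD, n = 2). Both classes were lowest in LGC, box C/D at 211 ± 5.33 and H/ACA at 286 ± 24.5, against 296 ± 32.4 and 390 ± 44.1 in LGD. In such bulk samples, less RNA per cell and fewer cells that hold it cannot be told apart. Nor can mature snoRNAs be told from precursors or molecules marked for decay, since selection of polyadenylated RNA is not given.

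**Figure D2:**
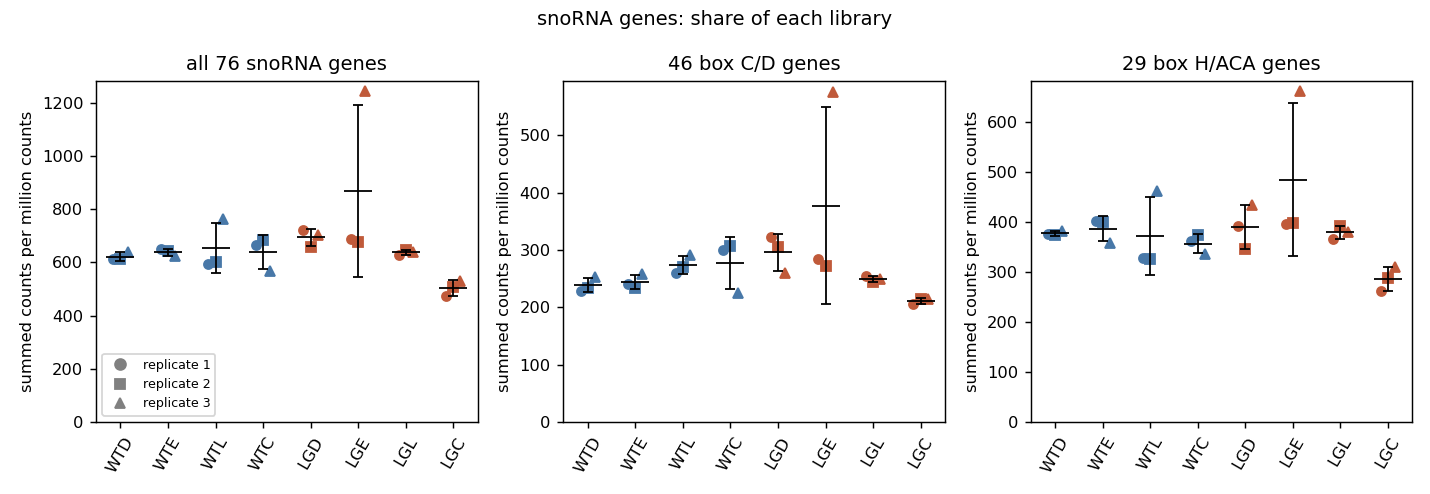
Summed counts of all 76 snoRNA genes, of the 46 box C/D genes and of the 29 box H/ACA genes, in CPM of the plain library total (vertical axes, from 0). Points are libraries, coloured by strain and shaped by replicate, and bars are the mean and SD of 3 libraries; the LGC libraries lie lowest, at 472 to 530 for all members, and LGE replicate 3 lies highest, at 1244.

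The first comparison asks how the mutant differs from the control in plain YPD (LGD vs WTD). In it 8 members rose and 3 fell among the 71 that passed the filter on low counts, by edgeR's quasi-likelihood test with Benjamini-Hochberg adjusted p under 0.05. In the same fit 36.8% of all genes tested were called, 19.5% higher and 17.4% lower, against 15.5% of the members. Their median log2 fold change was 0.22 against 0.01 for all genes, with 49 positive and 22 negative. Libraries did not overlap for 17 of 76 members that were higher (27.4% of all genes) and for 3 that were lower (23.8%).

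Among box C/D genes, snR63, snR66, snR55 and the U3 gene snR17b changed. The snR63 counts were 367, 441 and 357 in WTD and 321, 324 and 300 in LGD. All LGD values were the lower ones, at 15.9 ± 0.274 against 23.3 ± 2.88 CPM, a log2 fold change of -0.57 ± 0.12 (SE; edgeR adjusted p = 0.0131). For snR66 the counts were 69, 90 and 63 in WTD and 142, 179 and 171 in LGD. It rose by 0.88 ± 0.20 on the log2 scale (edgeR adjusted p = 0.0162), from 4.44 ± 0.862 to 8.29 ± 1.07 CPM. snR55, which guides a small-subunit methylation, rose by 0.73 ± 0.22 (edgeR adjusted p = 0.0382) from 26, 38 and 38 counts to 73, 71 and 59, with no overlap.

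Among box H/ACA genes the clearest change was a fall of snR49. Its counts were 560, 612 and 634 in WTD and 426, 409 and 409 in LGD. In CPM the WTD libraries were tight at 36.0 ± 0.0931 and the LGD libraries at 20.9 ± 0.482, a log2 fold change of -0.81 ± 0.08 (edgeR adjusted p = 0.00138). snR11, a pseudouridylation guide of the large subunit, had 495, 554 and 666 counts in WTD and 325, 283 and 514 in LGD. It fell by 0.87 ± 0.24 on the log2 scale (edgeR adjusted p = 0.0282), with LGD replicate 3 closest to the control. In the other direction, snR42, a guide of the large subunit, rose from 92, 114 and 134 counts to 214, 217 and 259. This was 0.76 ± 0.16 on the log2 scale (edgeR adjusted p = 0.0131), and no libraries overlapped. snR80, which guides a site in each subunit, rose from 37, 42 and 35 counts to 111, 97 and 71, by 1.01 ± 0.23 (edgeR adjusted p = 0.0159). The other risers were snR3, snR9 and snR31, guides of pseudouridylation, at log2 fold changes of 0.64, 0.73 and 0.70. These 3 and snR55 were named after their values were seen.

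By class, 3 C/D genes rose and 1 fell of 42 tested, with a median of 0.18, and 5 H/ACA genes rose and 2 fell of 28, with a median of 0.23. snR49 was called in each of the 6 fits that left out 1 library. The number of calls was 1, 3 and 5 without WTD replicates 1, 2 and 3 and 4, 3 and 18 without LGD replicates 1, 2 and 3. Of all genes, 17.5%, 17.7% and 25.3% were called in the first of these sets of fits and 20.2%, 18.7% and 58% in the second. With replicates 1 and 2 summed into 1 library it was 0 (1.5% of all genes called).

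**Figure D3:**
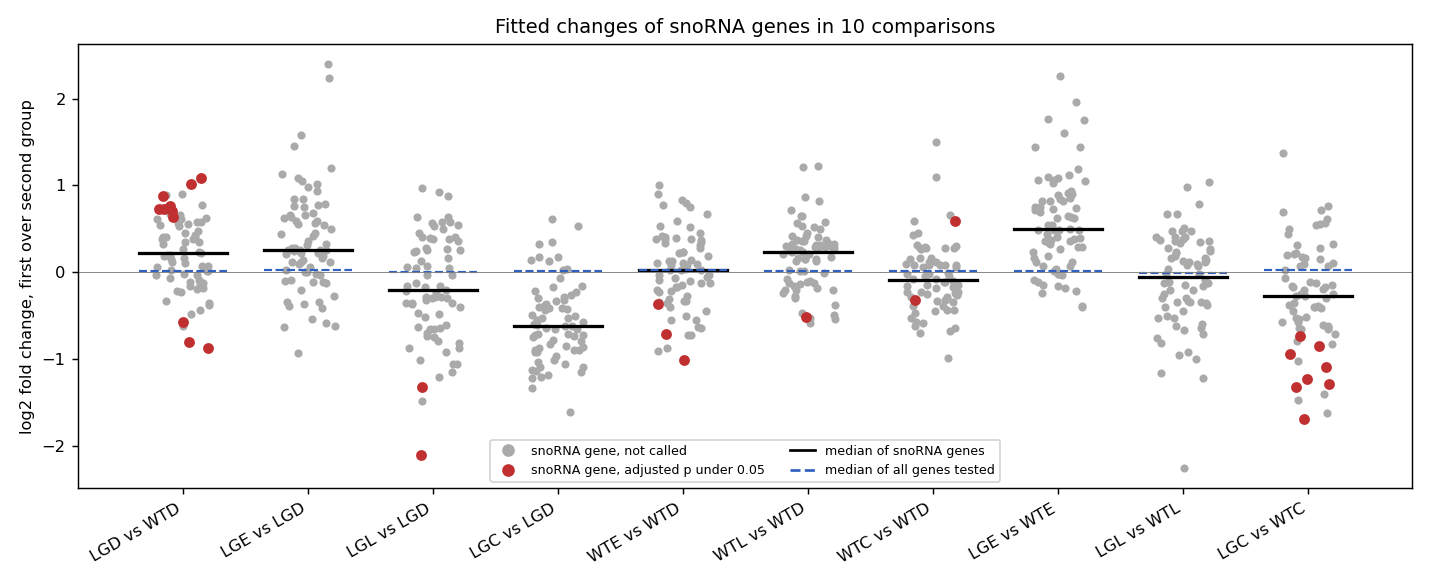
Fitted log2 fold changes of the snoRNA genes that passed the filter in the 10 pairwise comparisons, first group over second. Grey points were not called, red points had an edgeR adjusted p under 0.05, black lines are medians of the snoRNA genes and dashed blue lines medians of all genes tested; the snoRNA median is lowest for LGC vs LGD, at -0.62, and highest for LGE vs WTE, at 0.50.

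Choline was compared with YPD within each strain. In the mutant (LGC vs LGD) the members lay lower as a group, with a median log2 fold change of -0.62 against 0.01 for all genes, and 62 of 72 tested were negative. No member and no gene at all was called by edgeR's quasi-likelihood test (0% of 6191 genes). At an unadjusted p under 0.05 there were 28 of the 72 members tested, against 14.5% of all genes. DESeq2 called 11 members (4.88% of all genes). All LGC libraries lay below all LGD libraries for 31 of 76 members, against 10.5% of all genes, and above them for 0 of 76, against 11.5%. The deviations of libraries that share a number correlated at 0.59 to 0.71 here. In the fit blocked by replicate 15 of 72 members were called, all lower, where 24.6% of genes were called and 13.6% called lower. This pairing was chosen from the same data, and with replicates 1 and 2 summed into 1 library 0 of 6269 genes were called.

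The calls with the block held 10 H/ACA genes and 5 C/D genes, which were named after their values were seen. The H/ACA gene snR49 had 426, 409 and 409 counts in LGD and 198, 212 and 208 in LGC, a log2 fold change of -1.01 ± 0.11 in both fits (adjusted p = 0.176 without the block and 0.00709 with it, edgeR). In CPM, 20.9 ± 0.482 became 10.4 ± 0.316, and the libraries within each group were far closer than the groups. snR44 went from 568, 512 and 322 counts to 199, 221 and 212, at -1.14 ± 0.21 (edgeR adjusted p = 0.239; 0.0141 with the block). snR82, a guide of 3 large-subunit positions, had a log2 fold change of -1.22 ± 0.20 (edgeR adjusted p = 0.239; 0.0185 with the block). Of the C/D genes, snR4 went from 852, 869 and 811 counts to 525, 554 and 450, at -0.73 ± 0.11 (edgeR adjusted p = 0.239; 0.00827 with the block). snR63 went from 321, 324 and 300 to 206, 244 and 176, at -0.60 ± 0.14 (edgeR adjusted p = 0.239; 0.0301 with the block). The others were snR86, snR84, snR31, snR46, snR80, snR33 and snR30 of the H/ACA class and snR17b, snR48 and snR24 of the C/D class.

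The median was negative in both classes and in every kind of gene. The median log2 fold change was -0.60 for the 43 C/D genes tested, -0.66 for the 28 H/ACA genes, -0.60 for 48 single genes, -0.63 for 17 clustered genes and -1.09 for 7 genes in hosts. Other noncoding RNAs did not share one value, with medians of -0.30 for 33 transfer RNA genes, -0.35 for 3 small nuclear RNA genes, 0.12 for 6 ribosomal RNA genes and 0.19 for 12 other noncoding RNA genes. Leaving out any 1 library kept the member median between -0.67 and -0.55. The number of calls stayed at 0 (0% to 0.0161% of all genes) except without LGD replicate 3, where it was 3 (2.28%).

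In the control the same medium (WTC vs WTD) gave 1 rise and 1 fall among 70 members by edgeR's quasi-likelihood test, where 19.1% of all genes were called, 10.1% higher and 9.06% lower, and the member median was -0.09. snR57, a methylation guide of the small subunit, had 200, 212 and 266 counts in WTD and 322, 433 and 304 in WTC, a rise of 0.59 ± 0.17 on the log2 scale (edgeR adjusted p = 0.0476) without overlap. snR86, a long H/ACA RNA that guides a large-subunit site, had 2751, 2825 and 2953 counts in WTD and 2019, 2568 and 2535 in WTC. It fell by 0.32 ± 0.07 (edgeR adjusted p = 0.0195). The calls numbered 0, 0 and 1 without WTD replicates 1, 2 and 3 (6.53%, 6.82% and 18.1% of all genes), and 0, 0 and 11 without WTC replicates 1, 2 and 3 (8.24%, 6.87% and 30.7%).

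The difference between the strains' responses to choline was tested as an interaction, in which 2 of 74 members were called, both lower, against 0.864% of all genes and 0.416% lower, by edgeR's quasi-likelihood test. The member median was -0.49, with 61 negative values, and 0.04 for all genes. snR49 differed by -0.88 ± 0.15 on the log2 scale (edgeR adjusted p = 0.0335) and snR4 by -0.81 ± 0.15 (edgeR adjusted p = 0.0379). With the replicate block 6 members were called, against 6.9% of genes. The interaction had 0 calls in 9 of the fits that left out 1 library (0.0637% to 0.334% of all genes), and 5, 11 and 1 calls without WTC, LGD and LGC replicate 3 (1.72%, 23.5% and 0.51%).

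Between the strains in choline (LGC vs WTC) 8 members fell and none rose among 72, by edgeR's quasi-likelihood test, where 16.6% of all genes were called and 6.93% called lower. At an unadjusted p under 0.05 there were 21 members, and 34.0% of all genes. All LGC libraries lay below all WTC libraries for 16 of 76 members (16.2% of all genes), and the member median was -0.28 against 0.02. This comparison shares its LGC libraries with LGC vs LGD. Same-numbered libraries deviated together here too, with correlations of 0.18 to 0.23, and with the block 10 members were called, all lower (20.9% of genes, 10.9% lower); it ended the call of snR39B (edgeR adjusted p = 0.0710).

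Of the H/ACA genes, snR49 had 526, 667 and 545 counts in WTC and 198, 212 and 208 in LGC, a fold of 3.23 and a log2 fold change of -1.69 ± 0.14 (edgeR adjusted p = 0.0023). snR44 had 410, 517 and 416 in WTC and 199, 221 and 212 in LGC, at -1.29 ± 0.14 (edgeR adjusted p = 0.0041). In both genes the LGC libraries formed a tight group below all control libraries. snR191 and snR82, guides of the large subunit, fell by 1.09 and 0.94 on the log2 scale. Of the C/D genes, snR63 had 383, 474 and 510 counts in WTC and 206, 244 and 176 in LGC, at -1.32 ± 0.14 (edgeR adjusted p = 0.0034). snR4 fell by 0.73 on the log2 scale, from 703, 797 and 704 counts to 525, 554 and 450. snR57 and snR39B, methylation guides of the small and the large subunit, fell by 0.85 and 1.23. The genes beyond snR49 and snR63 were named after their values were seen. snR49, snR63 and snR44 kept their call in each of the 6 fits that left out 1 library. The calls numbered 3, 3 and 16 without WTC replicates 1, 2 and 3 (3.04%, 2.75% and 20.9% of all genes), 4, 4 and 16 without LGC replicates 1, 2 and 3 (5.43%, 5.36% and 36.2%), and 0 with replicates 1 and 2 summed (0% of all genes).

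**Figure D4:**
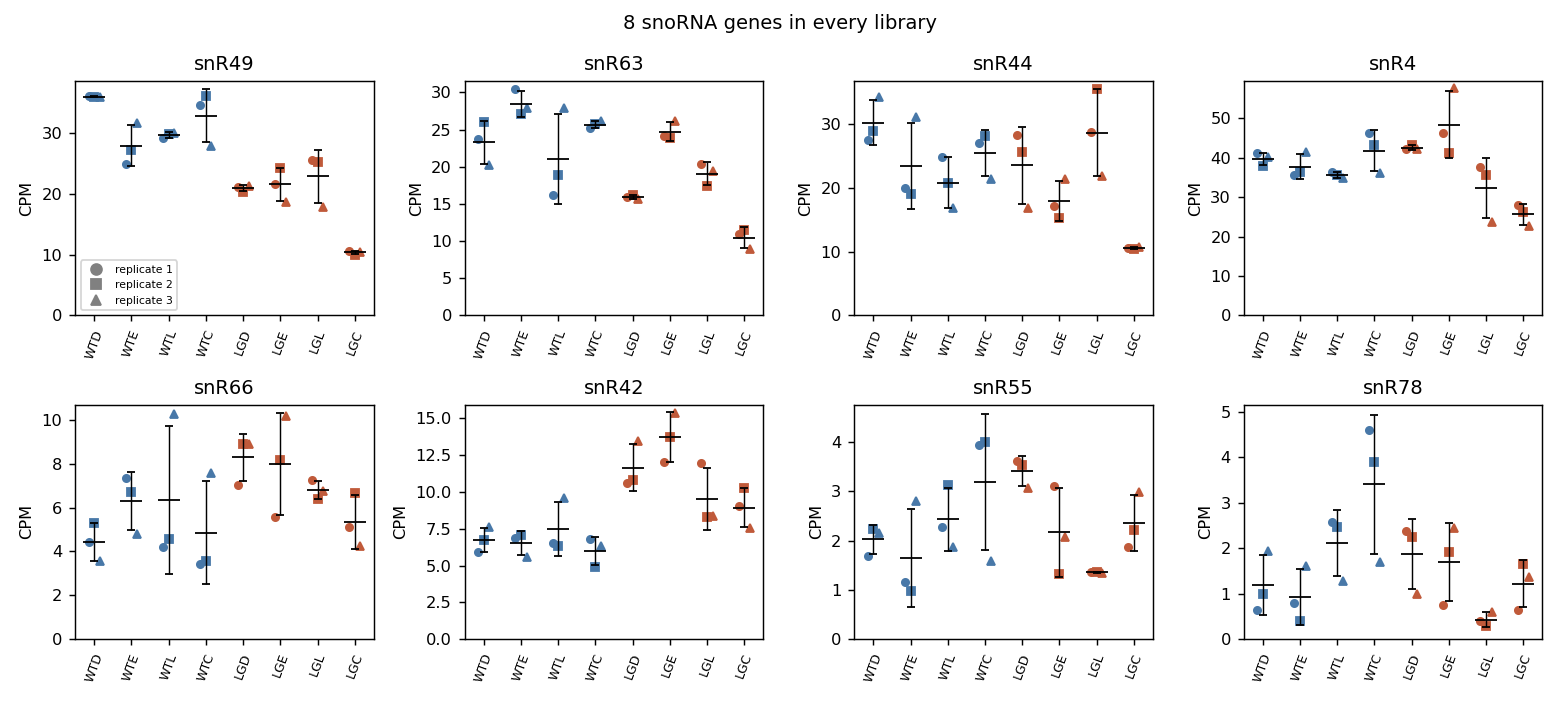
CPM of 8 snoRNA genes in each of the 24 libraries, one panel a gene, on axes from 0. Points are libraries, coloured by strain and shaped by replicate, and bars are the mean and SD of 3 libraries; snR49, snR63, snR44 and snR4 have their lowest group mean in LGC, at 10.4, 10.5, 10.6 and 25.7 CPM, and snR55 and snR78 in LGL, at 1.36 and 0.426 CPM.

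With tergitol and lyso-PE 2 members fell in the mutant (LGL vs LGD), both clustered C/D genes, among 74 tested by edgeR's quasi-likelihood test, where 13.2% of all genes were called and 7.44% called lower. The member median was -0.21 against 0.01, and 20 of 76 members were lower without overlap (17.4% of all genes). snR78 had 48, 45 and 19 counts in LGD and 8, 5 and 13 in LGL, a log2 fold change of -2.10 ± 0.50 (edgeR adjusted p = 0.0385). snR55 had 73, 71 and 59 counts in LGD and 28, 24 and 29 in LGL, at -1.33 ± 0.26 (edgeR adjusted p = 0.0264). Both are shallow, which limits the precision of these values, and neither reached the mean of 50 counts set for naming, so they were named after their values were seen. The rise of snR55 in LGD vs WTD, its fall here and its interaction value below all use the same LGD libraries. The calls numbered 0, 0 and 10 without LGD replicates 1, 2 and 3 (0.514%, 0.529% and 33.1% of all genes), and 0, 0 and 5 without LGL replicates 1, 2 and 3 (0.016%, 0.016% and 24.4%).

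Their cluster neighbours differed in size. In the cluster of snR55, snR57 had a log2 fold change of -1.01 ± 0.29 (edgeR adjusted p = 0.0579) with no overlap, and snR61 had -0.16 ± 0.37. In the cluster of snR78, which runs over chrXIII:297278-298651, snR77 had -0.79 ± 0.38, snR76 -0.21 ± 0.21, snR75 -1.06 ± 0.58, snR74 -0.48 ± 0.46 and snR72 0.39 ± 0.42. snR73 did not pass the filter. Whether neighbours in a cluster differ from each other was not tested.

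In the control the same treatment (WTL vs WTD) gave 1 fall among 71 members by edgeR's quasi-likelihood test, against 12.7% of all genes, 5.92% lower. It was snR86, with 2751, 2825 and 2953 counts in WTD and 2372, 1996 and 1895 in WTL, at -0.52 ± 0.08 (edgeR adjusted p = 0.0104), or -0.51 ± 0.06 without WTL replicate 3 (edgeR adjusted p = 0.00247). The member median was 0.23 with all libraries and -0.17 without WTL replicate 3. Without it 8 members were called, 2 of them higher, where 29.1% of all genes were called, and without WTD replicate 1 or 2 there were 0 calls (1.74% and 1.6% of all genes). Between the strains (LGL vs WTL), 0 of 72 members were called by edgeR (1.52% of all genes), with 4 at an unadjusted p under 0.05 (23.9% of all genes) and 3 by DESeq2 (12.6% of all genes). The member median was -0.06, or 0.35 without WTL replicate 3, where 4 members were called (5.7% of all genes), and 2 members were called without LGL replicate 3 (17.7%). With the replicate block, whose numbers pair here with correlations of 0.41 to 0.55, 2 members were called, snR78 and snR9, where 20.1% of genes were.

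The interaction of strain with tergitol and lyso-PE called 5 of 75 members, 4 lower and 1 higher, against 25.4% of all genes (12.3% lower and 13.1% higher) by edgeR's quasi-likelihood test. snR55 differed by -1.54 ± 0.38 (edgeR adjusted p = 0.0134) and snR78 by -2.87 ± 0.72 (edgeR adjusted p = 0.0148), and both were called in each of the 12 fits that left out 1 library. snR57 and snR31 differed by -1.28 and -1.05, and snR11 by 1.10 on the log2 scale. Without WTL replicate 3 these 5 values were -1.73, -3.17, -1.54, -1.14 and 1.33, and 7 members were called, 2 of them higher, where 23.4% of all genes were called. The member median was -0.32 with all libraries and 0.02 without WTL replicate 3. The number of calls was 2 or 3 without WTD replicate 1 or 2, WTL replicate 1 or 2, LGD replicate 1 or 2 or LGL replicate 2 (15.1% to 20.9% of all genes), and 10 without LGD replicate 3 (35.1%).

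With ethanolamine, members were called against YPD in the control and not in the mutant, but the interaction of strain with ethanolamine called 0 of 75. In WTE vs WTD 3 of 73 members fell by edgeR's quasi-likelihood test, where 22.6% of all genes were called and 11% called lower, and the member median was 0.02 against 0.03. snR70, a methylation guide of the small subunit, had 298, 283 and 426 counts in WTD and 167, 134 and 267 in WTE, at -1.02 ± 0.25 (edgeR adjusted p = 0.024). snR67, which guides large-subunit sites, had 107, 99 and 113 in WTD and 71, 75 and 76 in WTE, at -0.71 ± 0.20 (edgeR adjusted p = 0.0362). snR86 fell by 0.37 (edgeR adjusted p = 0.0141), and its WTE counts were 2798, 2242 and 2555. In all 3 genes the groups did not overlap in CPM, and snR70 in WTE replicate 3, at 13.8 CPM, lay nearer to the control libraries (16.7 to 24.2) than to the other WTE libraries (7.69 and 7.77). Same-numbered libraries deviated together, with correlations of 0.30 to 0.50, and with the block 11 members were called, 3 higher and 8 lower, where 33.6% of genes were. The calls numbered 0, 1 and 1 without WTD replicates 1, 2 and 3 (10.7%, 10.7% and 16.5% of all genes), and 0, 0 and 20 without WTE replicates 1, 2 and 3 (12.2%, 11.2% and 43.1%).

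In the mutant (LGE vs LGD) 0 of 74 members were called by edgeR (0.226% of all genes), with 9 at an unadjusted p under 0.05 (9.62% of all genes) and 1 by DESeq2 (2.65% of all genes). The member median was 0.26 with all libraries and -0.11 without LGE replicate 3, where 0 were called (0.755% of all genes). Between the strains (LGE vs WTE) 0 of 74 were called by edgeR (0.837%), with 15 at an unadjusted p under 0.05 (16.5% of all genes) and 6 by DESeq2 (7.94% of all genes). The median was 0.50, or 0.11 without LGE replicate 3, where 2 members were called, both higher, and 13.4% of all genes. snR42 had the smallest p there. It had 149, 122 and 108 counts in WTE and 240, 281 and 335 in LGE, at 1.06 ± 0.20 (edgeR adjusted p = 0.0616), with no overlap, and at 0.99 ± 0.18 without LGE replicate 3 (edgeR adjusted p = 0.017). Its level in all 12 mutant libraries, 7.54 to 15.4 CPM, overlapped that of the 12 control libraries, 4.93 to 9.60. The interaction of strain with ethanolamine called 0 of 75 members by edgeR (5.29% of genes), with 4 at an unadjusted p under 0.05 (21.4% of all genes) and 2 by DESeq2 (10.4% of all genes). Its smallest p was that of snR11, at 0.99 ± 0.29 (edgeR adjusted p = 0.0771), or 0.91 ± 0.30 without LGE replicate 3 (edgeR adjusted p = 0.0475). The median was 0.30, or -0.15 without LGE replicate 3, where 3 members were called (23.7% of all genes). The calls numbered 1 without WTE replicate 3 (6.59%) and 2 without LGD replicate 3 (9.96%).

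**Figure D5:**
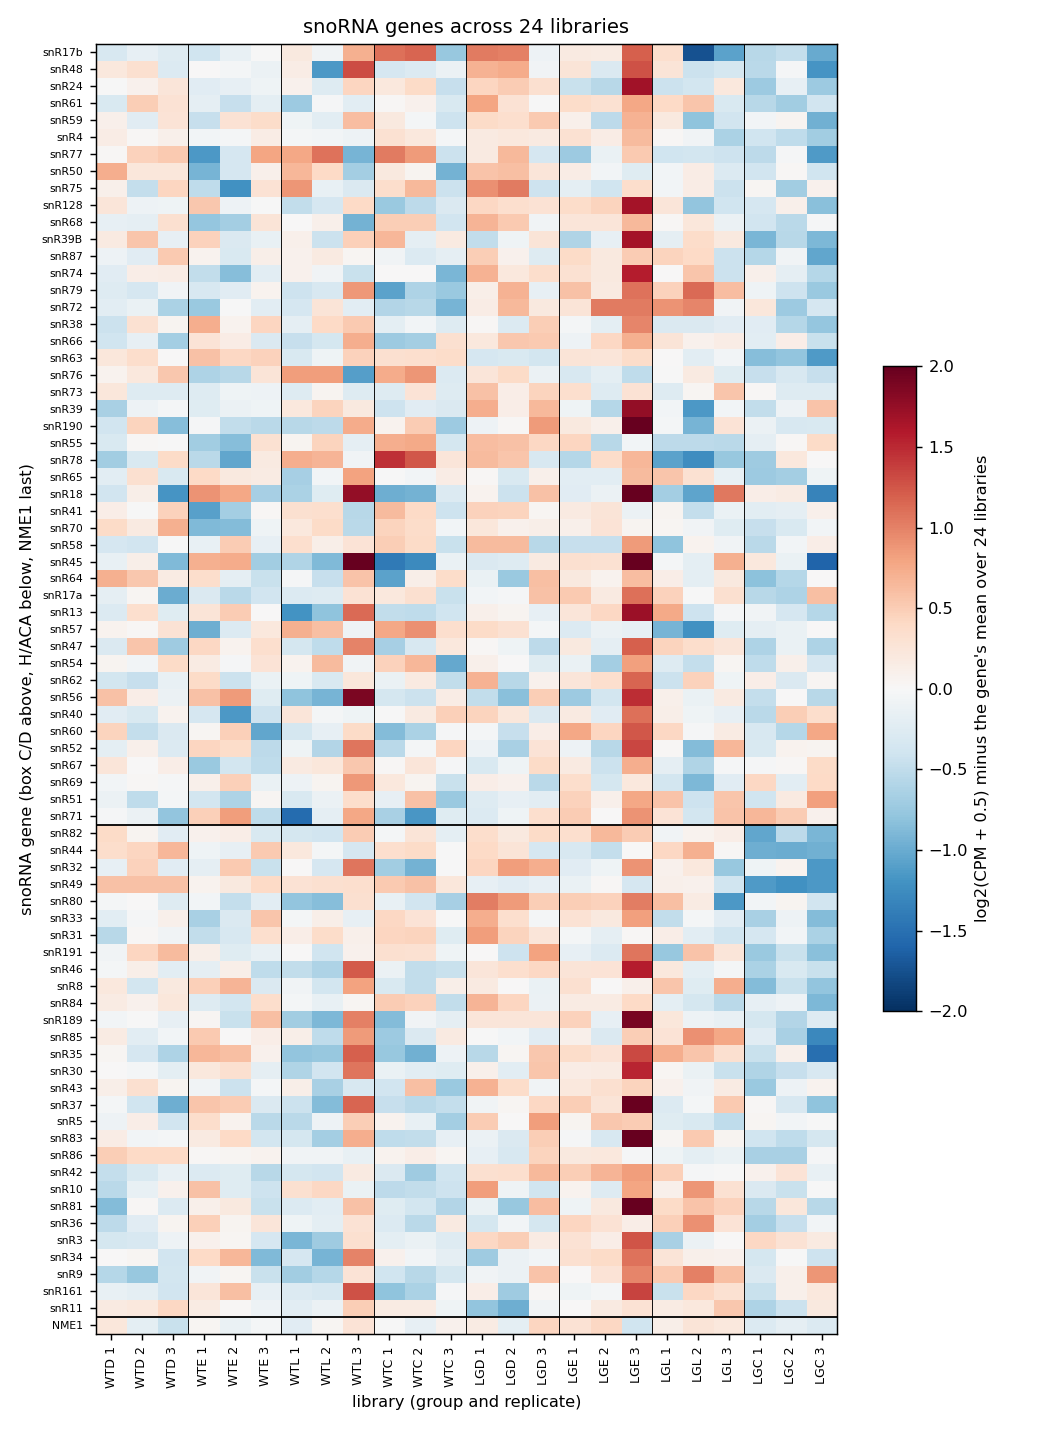
Deviation of each snoRNA gene from its own mean over the 24 libraries, on the scale of log2(CPM + 0.5), with colours cut at 2 and -2. Rows are genes, box C/D above, box H/ACA below and NME1 last, ordered within class by LGC minus LGD, and columns are libraries; LGE replicate 3 and WTL replicate 3 lie above the genes' own means (red) for 68 and 54 of 76 genes, the LGC libraries for 13 to 22, and the other libraries for 17 to 53.

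The snoRNAs with a role in precursor cleavage differed in depth, from a mean of 10.8 counts for snR10 to 428 for snR30. U3, which pairs with the external spacer of the precursor for its first cleavages, has 2 genes that are 81.6% identical over their gene spans of 490 and 462 bases, introns included, so reads may be split between them and both values are uncertain. The counts of snR17a were 100, 129 and 61 in WTD and 143, 145 and 218 in LGD, which do not overlap as counts but overlap in CPM, at 0.53 ± 0.33 on the log2 scale (edgeR adjusted p = 0.24). snR17a also overlaps YOR235W. The counts of snR17b were 39, 49 and 47 in WTD and 147, 143 and 58 in LGD. It rose by 1.09 ± 0.36 (edgeR adjusted p = 0.0496), with LGD replicate 3, at 3.02 CPM, close to the control libraries at 2.52 to 2.88. In LGC it had 39, 47 and 27 counts, against 115, 146 and 34 in WTC and 87, 11 and 28 in LGL. In LGC vs LGD it stood at -1.61 ± 0.40 (edgeR adjusted p = 0.239; 0.0128 with the block).

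U14, or snR128, is essential for small-subunit rRNA processing and also guides a methylation. It had 78, 66 and 69 counts in WTD and 116, 108 and 100 in LGD, higher in each mutant library in CPM, at 0.33 ± 0.18 (edgeR adjusted p = 0.189). In LGE it had 110, 120 and 311 counts. Its cluster partner snR190 had 15, 36 and 10 counts in WTD and 26, 29 and 57 in LGD, with overlap, at 0.61 ± 0.55 (edgeR adjusted p = 0.413), and 34, 32 and 260 in LGE. snR30, an H/ACA snoRNA needed for small-subunit processing, had 327, 346 and 321 counts in WTD and 453, 360 and 596 in LGD. The groups overlapped in CPM, at 0.24 ± 0.20 (edgeR adjusted p = 0.388), and without LGD replicate 3 the value was -0.01. Its counts in LGC were 254, 319 and 329, below LGD in every library, at -0.65 ± 0.22 (edgeR adjusted p = 0.28; 0.0391 with the block). snR10, an H/ACA snoRNA with a part in early cleavage, had 3 to 27 counts over the 24 libraries, so its values have little precision. What size of difference could be detected at this depth was not tested. It overlaps YGL088W.

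Members inside host genes were read beside the hosts. snR44 and its host RPS22B both fell in LGC vs WTC, at -1.29 ± 0.14 and -0.88 ± 0.22 on the log2 scale (edgeR adjusted p = 0.0041 and 0.0372). snR191 fell by 1.09 in the same comparison, while its host NOG2, a GTPase of large-subunit assembly, stood at 0.77 ± 0.37 (edgeR adjusted p = 0.194). In LGD vs WTD NOG2 rose by 2.42 ± 0.28 (edgeR adjusted p = 0.00188) and snR191 stood at -0.20 ± 0.40. Whether a member and its host differ was not tested. The hosts EFB1 and ASC1 had 2321 and 2152 CPM per kilobase against 55.2 and 21.5 for snR18 and snR24 inside them. The 8 members inside hosts lie on the same strand as the host, so host reads may enter their values under any strand setting. snR10, snR17a and snR60 overlap another gene, whose reads may also enter, as the strand setting of the counting is not given.

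Genes for the proteins that bind, assemble and process snoRNAs were read from the same fits. In LGD vs WTD, where 36.8% of genes were called, 2 of 4 box C/D core protein genes rose, SNU13 by 1.05 ± 0.24 and NOP58 by 0.90 ± 0.27 on the log2 scale (edgeR adjusted p = 0.0167 and 0.0386). The 4 H/ACA core protein genes CBF5, GAR1, NHP2 and NOP10 were not called, with values of 0.61, 0.25, 0.67 and 0.25. Of 9 assembly factor genes 5 rose and 0 fell, led by SHQ1, an H/ACA assembly factor, at 1.42 ± 0.20, and HIT1, a C/D assembly factor, at 1.37 ± 0.20. Of 18 genes of snoRNA processing and turnover 10 rose and 0 fell, among them RNT1 at 1.43 ± 0.29, the nuclear exosome helicase gene MTR4 at 1.60 ± 0.35, and the cap hypermethylase gene TGS1 at 1.23 ± 0.19.

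In LGC vs LGD none of these 35 genes was called, where 0% of all 6191 genes tested were called. The medians were -0.63, -0.55, -0.08 and -0.13 for the 4 lists in the same order. In LGC vs WTC HIT1 alone rose, by 1.08 ± 0.17 (edgeR adjusted p = 0.0107), where 9.7% of all genes were called higher. The interaction of strain with tergitol and lyso-PE was called lower for all 4 C/D core protein genes, from -1.13 for NOP1 to -2.14 for SNU13. It was called lower for 5 of 9 assembly factor genes, 9 of 18 processing genes and 0 of 4 H/ACA core protein genes, where 12.3% of all genes were called lower. The 4 H/ACA core protein genes also had negative values, from -0.62 for NOP10 to -1.03 for NHP2, with a median of -0.85. A difference between the lists was not tested. In WTC vs WTD 3, 1, 3 and 10 genes of the 4 lists rose and none fell, where 10.1% of all genes rose. In WTL vs WTD 1, 0, 2 and 9 rose and none fell (6.82% of all genes higher), and in WTE vs WTD 0, 0, 2 and 6 rose and none fell (11.6% higher). In LGL vs LGD 1, 0, 1 and 3 fell and none rose, where 7.44% of all genes fell. These lists carry the mRNA values only.

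Over the 10 pairwise comparisons there were 27 calls on 21 of the 76 members. In single comparisons 0% to 15.5% of the members tested were called, against 0% to 36.8% of all genes. The member share was never the higher one. The share of all genes called in at least 1 of the 10 was not counted. Of the members, 69 passed the filter in all 10 comparisons, 1 passed in none and 55 were called in none, and 5 were called in more than 1 comparison. These include snR49 and snR63, lower in the mutant in YPD and in choline, and snR86, lower in the control with each addition than in YPD, where the comparisons share the WTD libraries.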

How the data were processed

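Counts of 24 libraries were read from the 7 deposited tables, each covering 2 groups. Per the file headers and the values, the authors deposited read counts per gene, which are whole numbers and were used as deposited. The same deposited tables give a signal, made from the counts with a size factor for each library within its table, FPKM values, gene length, and log2 fold changes with p-values of the authors' own comparisons, none of which entered a test. STAR 2.5, HTSeq 0.6.1, DESeq2 and CASAVA are named in the submitters' processing notes, without roles; build, annotation and strand setting are not given in the sources used here. Libraries in several tables had 0 differing counts. The 6424 genes of all 7 tables were fitted, with 0 sample columns unmapped.

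Each of the 10 pairwise comparisons was fitted on its 6 libraries, and each of 3 interactions on 12, with edgeR 4.0.16 in R 4.3.3 (quasi-likelihood F test, TMM, filterByExpr, Benjamini-Hochberg over all genes tested, threshold 0.05). DESeq2 1.42.0 was an alternative, as were other scalings, filters, the replicate block, replicates 1 and 2 summed, and leaving out each library; the scripts were tested on simulated data. Named in each comparison were the called members with the largest changes whose groups did not overlap in CPM and whose mean count reached 50 (up to 4 in each direction for LGD vs WTD, otherwise 2), the smallest p of each interaction, the snoRNAs of precursor cleavage, and the 3 highest and 3 lowest by level; others are marked as named after their values were seen. The members, lists and tests were chosen with earlier results of these data known. Replicate numbers come from the titles. Same-numbered libraries were taken as paired where their deviations correlated above 0.1 for each number. This held in 4 of 10 comparisons (both comparisons of LGC, WTE vs WTD, and the strains with tergitol and lyso-PE). Over all 10, correlations ran from -0.62 to 0.71. In LGD vs WTD, LGE vs LGD, WTL vs WTD and WTC vs WTD they were negative for every number, from -0.27 to -0.62. A shared number therefore does not mark a shared batch throughout, and the pairing was chosen from the data tested. Since replicates 1 and 2 were close in every group, the correlations of a comparison are not independent of each other.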

Additional observations from a re-analysis of the deposited data

Results flagged for a closer look

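The response to an added compound differed between the strains for 7 members by the test of the difference itself, edgeR's quasi-likelihood interaction test with Benjamini-Hochberg adjustment, given as the mutant's log2 change minus the control's. With tergitol and lyso-PE the difference was 1.10 for snR11, -1.05 for snR31, -1.54 for snR55, -1.28 for snR57 and -2.87 for snR78. With choline it was -0.81 for snR4 and -0.88 for snR49. Of the 7, 2 (snR55 and snR78) were called in each fit that left out 1 library, and with replicates 1 and 2 summed the adjusted p ran from 0.211 to 0.665. The share of all genes with a called difference was 25.4% for tergitol and lyso-PE and 0.864% for choline.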

How the results depend on the processing

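With the replicate block the called members numbered 6 for LGD vs WTD (20.7% of all genes), 0 for LGL vs LGD (0%), 15 for LGC vs LGD (24.6%), 11 for WTE vs WTD (33.6%), 0 for WTL vs WTD (0.0163%) and for WTC vs WTD (0.946%), 2 for LGL vs WTL (20.1%) and 6 for the interaction with choline (6.9%), and elsewhere stayed within 1.5 times the count without it. With replicates 1 and 2 summed into 1 library there were 0 calls for LGD vs WTD, LGL vs LGD, WTE vs WTD, WTL vs WTD, WTC vs WTD, LGC vs WTC and the interactions with tergitol and lyso-PE and with choline (0% to 4.73% of all genes); each group then has 2 libraries. DESeq2 called 1 member for LGE vs LGD (2.65% of all genes), 9 for LGL vs LGD (25.2%) and 11 for LGC vs LGD (4.88%). It called 5 for WTE vs WTD (27.4%), 2 for WTL vs WTD (21.8%) and 6 for LGE vs WTE (7.94%). It also called 3 for LGL vs WTL (12.6%) and 16 for LGC vs WTC (26.2%). For the interactions with ethanolamine and with choline it called 2 (10.4%) and 10 (11.7%). DESeq2 kept 27 of 27 pairwise calls, and over the 13 tests it called 2.65% to 41.3% of all genes. With at least 10 counts in every library 1 remained for LGL vs LGD, and with upper-quartile scaling 1 for WTC vs WTD. The share of all genes called was not counted under these settings, so these counts have no background beside them. Leaving out each library in turn, calls ranged from 1 to 18 for LGD vs WTD, 0 to 0 for LGE vs LGD, 0 to 10 for LGL vs LGD, 0 to 3 for LGC vs LGD, 0 to 20 for WTE vs WTD, 0 to 8 for WTL vs WTD, 0 to 11 for WTC vs WTD, 0 to 2 for LGE vs WTE, 0 to 4 for LGL vs WTL, 3 to 16 for LGC vs WTC, and 0 to 3, 2 to 10 and 0 to 11 for the interactions with ethanolamine, with tergitol and lyso-PE, and with choline. Member medians then ranged from 0.17 to 0.31 for LGD vs WTD, -0.17 to 0.35 for WTL vs WTD and -0.16 to 0.35 for LGL vs WTL. The log2 fold change of snR30 in LGD vs WTD ranged from -0.011 without LGD replicate 3 to 0.39. In the same comparison that of snR190 ranged from 0.13 to 1.29 and that of snR17a from 0.26 to 0.77. No pairwise call changed sign in any fit that left out a library, and 4 of 27 were kept in every such fit.

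Members whose libraries do not overlap were also counted under settings chosen after seeing the data. With library totals in place of TMM, LGC vs LGD had 23 lower members (5.37% of all genes), against 31 (10.5%). LGC vs WTC then had 10 lower (10.3%), against 16 (16.2%), and LGL vs LGD 16 lower (13.9%), against 20 (17.4%). Higher members numbered 21 for LGD vs WTD (37.1%), against 17 (27.4%), and 19 for LGE vs WTE (13.9%), against 17 (13%). Without replicate 3 there were 52 lower for LGC vs LGD, 33 higher for LGD vs WTD, 35 lower for LGL vs LGD, 29 higher for LGE vs WTE and 34 lower for LGC vs WTC, where 2 libraries a group also raise the share over all genes, to 37.2%, 43.2%, 40.5%, 36.7% and 36.1%. The cause of these shifts was not tested. Depth limits the shallow members most: 9 have a mean under 20 counts.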
